A study of Macaca mulatta with 27 samples.

Results

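The integrin and laminin genes of rhesus macaque pluripotent stem cells (PSCs) were examined before and after reprogramming toward naive pluripotency. Members were taken by symbol alone: every integrin alpha subunit gene (ITGA), every integrin beta subunit gene (ITGB followed by a single digit), and every laminin chain gene (LAMA, LAMB, or LAMC followed by a single digit). The rule used no measured value, but the family was chosen with earlier results of these data known. It found 37 of the 17967 genes in the count tables, 17 alpha subunits, 8 beta subunits, and 12 laminin chains. ITGA9 was not analysed here. Bulk RNA sequencing gave 27 libraries, 6 of primed cells and 3 of cells under each of 7 protocols. All libraries came from LyonES-tGFP-(S3), a line of rhesus embryonic stem cells that is 1 clone and carries tauGFP under the CAG promoter and a lentiviral STAT3-ERT2, a STAT3 that tamoxifen can switch on. TL2i cells received tamoxifen, LIF, and inhibitors of MEK and GSK3β. TL-CDK8/19i cells (TL-CDK8i in the labels) received tamoxifen, LIF, and the CDK8/19 inhibitor CNIO-47799 in place of the MEK and GSK3β inhibitors. E-NHSM, NHSM-v, 4i/L/b, t2iLGöY, and LCDM (EPS) cells carried the same transgenes and were grown without tamoxifen in the media of these names. Primed cells were passaged mechanically as clumps and reprogrammed cells as single cells, so protocol and passaging cannot be told apart in any comparison with primed cells. No label says whether libraries of a group came from separate cultures, and p-values then measure only the spread between these libraries.

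Integrins are cell surface receptors made of an alpha and a beta subunit, and the pair decides which matrix protein is bound. Laminins are secreted trimers of an alpha, a beta, and a gamma chain that build the basement membrane beneath epithelia, including the epiblast of the early embryo. Primed PSCs are known for adhering to laminins through the alpha6 subunit (ITGA6) paired with beta1 (ITGB1), and the trimer of LAMA5, LAMB1, and LAMC1 is widely used to coat their dishes.

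Total counts per library ranged from 7111886 to 20760914, so that 3 counts, taken as the floor, corresponded to 0.141 to 0.429 CPM (counts scaled to the same total in every library, after TMM normalization). No 2 replicates of a group agreed within sampling noise (chi-square per gene 3.98 to 29.8 over 36 pairs). The markers of pluripotent cells did not match the labels in every group. POU5F1, which encodes OCT4, lay at 1104 to 1295 CPM in primed, 1345 to 1402 CPM in E-NHSM, and 418 to 605 CPM in TL-CDK8/19i libraries, but at 5.13 to 7.69 CPM in TL2i, 1.14 to 5.97 CPM in LCDM (EPS), 0.0722 to 1.8 CPM in t2iLGöY, 0.486 to 1.64 CPM in 4i/L/b, and 0.206 to 0.44 CPM in NHSM-v libraries. NANOG was at or under the floor in NHSM-v, 4i/L/b, t2iLGöY, and LCDM (EPS) libraries and at 0.0582 to 0.539 CPM in TL2i libraries. The summed level of 6 pluripotency markers was 5231 to 5822 CPM in primed, 6205 to 6257 in E-NHSM, 1432 to 2009.9 in TL-CDK8/19i, 425 to 514 in TL2i, 428 to 452 in LCDM (EPS), 186 to 196 in t2iLGöY, 158 to 161 in 4i/L/b, and 121 to 137 in NHSM-v libraries. DNMT3B made most of the primed sum, with a mean of 3103.5 CPM. SOX2 did not follow the sum in every group, with means of 271 CPM in primed, 329 CPM in LCDM (EPS), and 74.6 CPM in 4i/L/b cells, the lowest. LIN28A kept a mean of 271 CPM in TL2i cells, beside 573 CPM in primed cells. The sum of 8 fibroblast markers, mostly COL1A1 and COL1A2, was 1127 to 2491 CPM in primed, 442 to 473 in E-NHSM, 777 to 1014 in LCDM (EPS), 3409 to 4035 in t2iLGöY, 2917 to 5692 in TL2i, 7972 to 8521 in NHSM-v, 8768 to 11294 in TL-CDK8/19i, and 11611 to 15085 in 4i/L/b libraries, with DCN and LUM at or under the floor in primed, E-NHSM, and t2iLGöY libraries. The listed markers did not move together. In t2iLGöY cells the means of COL1A1, COL3A1, and TWIST1 were above those of primed cells. Those of COL1A2 (310 against 457 CPM), THY1 (13.6 against 74 CPM), and PRRX1 (36.1 against 54.9 CPM) were below. THY1 (13.1 CPM) and PRRX1 (21.8 CPM) were also below primed cells in TL2i cells, where the other listed markers were above. In 4i/L/b cells THY1 (57.9 CPM) was the only listed marker below primed cells. TWIST1 was the only one above them in E-NHSM cells (43.7 against 5.02 CPM). In LCDM (EPS) cells COL3A1, DCN, LUM, and TWIST1 were above and the other listed markers below. Neural markers summed to 1305 to 1454 CPM in E-NHSM and 5369.9 to 5486 CPM in LCDM (EPS) libraries, the extremes, with 2332 to 2649 CPM in primed ones. NES made most of these sums, at means of 1292, 3086, and 2430 CPM in that order. TUBB3 had means of 10.3 CPM in primed, 7.78 in E-NHSM, 84.3 in TL2i, 107 in TL-CDK8/19i, 146 in 4i/L/b, 290 in NHSM-v, 679 in t2iLGöY, and 704 in LCDM (EPS) cells. PAX6 was highest in t2iLGöY cells (155 CPM), with 66.5 CPM in LCDM (EPS), 3.37 CPM in TL-CDK8/19i, and 3.45 CPM in primed cells. Trophoblast markers summed to 3.59 to 14.7 CPM in primed, 2.96 to 4.19 in E-NHSM, 7.78 to 10.7 in 4i/L/b, 19.96 to 24.8 in NHSM-v, 99.6 to 107 in TL2i, 111 to 163 in t2iLGöY, 172 to 189 in LCDM (EPS), and 146 to 232 in TL-CDK8/19i libraries. TFAP2A made most of this sum in TL2i, t2iLGöY, and LCDM (EPS) cells, with means of 82, 134, and 181 CPM. In TL-CDK8/19i cells KRT7 made most of it, at a mean of 162 CPM, with TFAP2A at 5.78 CPM. KRT7 had no count in t2iLGöY and LCDM (EPS) libraries, where means of CGA, GATA3, and HAND1 were at most 2.22 CPM. The part of these shifts in the results on integrins and laminins was not tested, and in bulk RNA fewer cells of a type and less RNA per cell cannot be told apart.

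Of the 37 genes, 25 reached a mean of 10 CPM in at least 1 of the 8 groups. The 12 others stayed under 10 CPM in every group (ITGA2B, ITGA10, ITGAD, ITGAL, ITGAM, ITGAX, ITGB2, ITGB6, ITGB7, LAMA3, LAMB3, and LAMB4). Primed cells carried 18 genes at 10 CPM or more. The alpha subunits ITGA6, ITGA5, ITGAV, ITGA7, and ITGA3, the beta subunits ITGB1 and ITGB5, and the chains LAMA5, LAMA1, LAMB1, LAMB2, and LAMC1 were among them. Each protocol was then set against primed cells in a quasi-likelihood test of edgeR, with Benjamini-Hochberg adjustment over all genes tested. Values after a comparison are the log2 fold change ± its standard error, and a gene is called changed at an adjusted p under 0.05. The 7 comparisons share the primed libraries and are not independent of each other.

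In E-NHSM cells, 13 of the 29 members tested changed and all 13 fell, where 26.2% of all genes tested were called, 11.1% upward and 15.1% downward. The other protocols moved members both ways. NHSM-v cells had 12 members higher and 7 lower of 29 tested (58.6% of all genes called, 28% upward and 30.6% downward). For 4i/L/b cells the counts were 17 higher and 6 lower of 32 (55.6%, 26.6% upward and 29% downward). In TL2i cells 15 were higher and 7 lower of 32 (50.7%, 25.6% upward and 25.2% downward). TL-CDK8/19i cells had 15 higher and 5 lower of 30 (46.1%, 22.3% upward and 23.8% downward). Losses prevailed in t2iLGöY cells, with 5 higher and 11 lower of 28 (54.3%, 27.1% upward and 27.2% downward), and in LCDM (EPS) cells, with 4 higher and 17 lower of 30 (57.1%, 28.2% upward and 28.9% downward). In NHSM-v and t2iLGöY cells the share of members called stood near the background. The median absolute log2 fold change of the members tested was 0.75 in E-NHSM, 1.24 in NHSM-v, 1.25 in 4i/L/b, 1.51 in TL2i, 1.64 in t2iLGöY, 1.63 in LCDM (EPS), and 1.67 in TL-CDK8/19i cells, beside 0.38, 0.79, 0.71, 0.63, 0.75, 0.74, and 0.56 for all genes tested. Members that also changed by at least 1 on the log2 scale numbered 6 in E-NHSM (9.09% of all genes), 12 in NHSM-v (34.4%), 19 in 4i/L/b (29%), 15 in TL2i (24.2%), 13 in t2iLGöY (31.5%), 17 in LCDM (EPS) (32%), and 16 in TL-CDK8/19i cells (19.3%). Members whose libraries did not overlap with primed ones at all numbered 13 in E-NHSM (29.4% of all genes), 17 in NHSM-v (55.6%), 24 in 4i/L/b (55.7%), 22 in TL2i (50.8%), 16 in t2iLGöY (51.9%), 22 in LCDM (EPS) (55.4%), and 22 in TL-CDK8/19i cells (46.1%). The map of fold changes shows these patterns gene by gene.

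**Figure D1:**
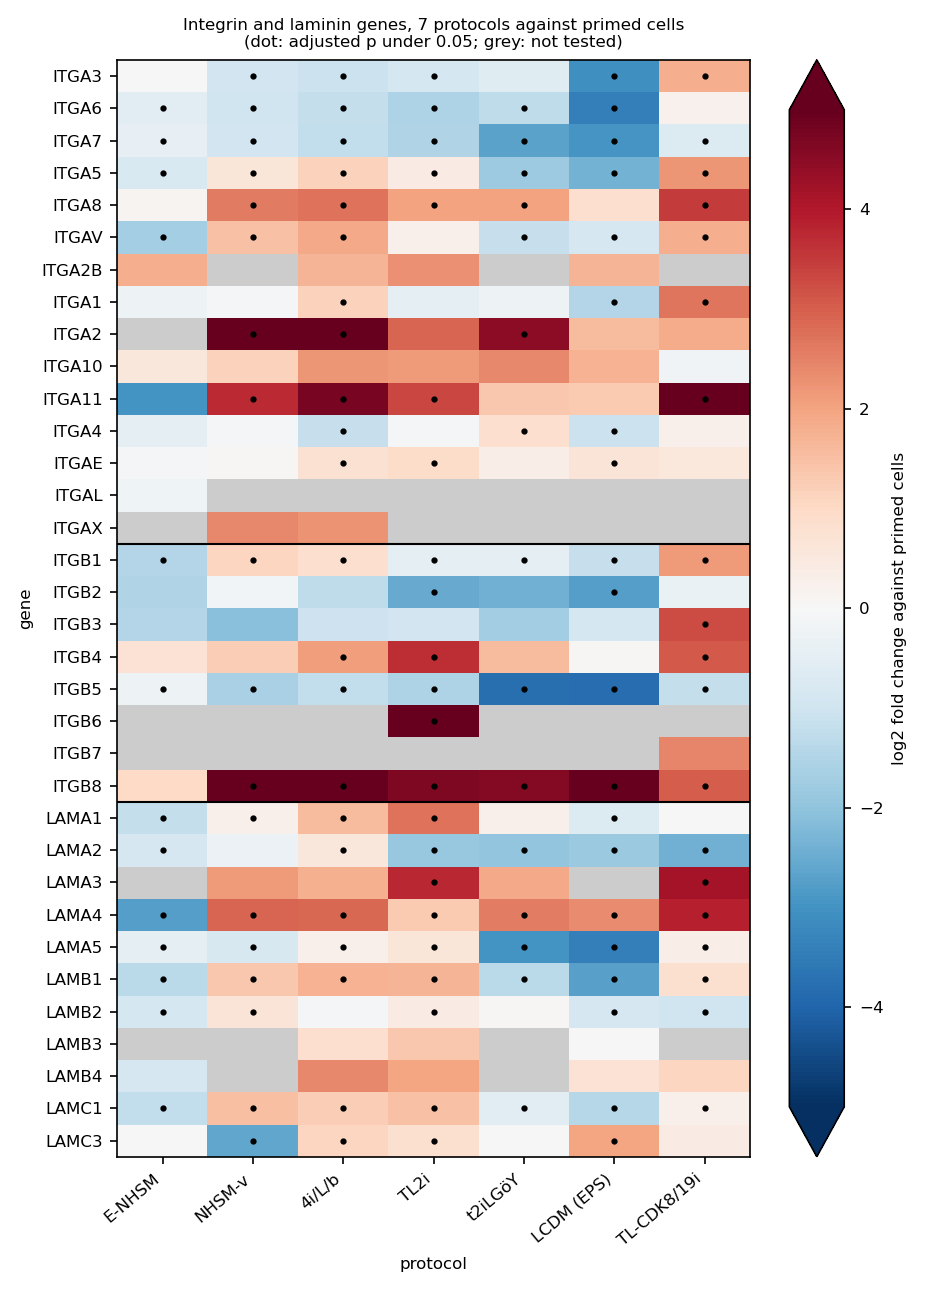
Log2 fold change of 34 integrin and laminin genes (rows: alpha subunits, beta subunits, laminin chains) in the 7 protocols against primed cells (columns); red is higher, blue is lower, black dots mark an adjusted p under 0.05, grey was not tested, and the darkest colours also stand for values beyond the ends of the scale. ITGA7 and ITGB5 are blue in all 7 columns, ITGB8 is dark red in 5, and the LCDM (EPS) column is mostly blue.

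The alpha subunits that bind laminin mostly fell: ITGA6 in 6 protocols and ITGA7 in all 7, while ITGA3 moved both ways. ITGA6, the subunit through which PSCs hold laminin, lay from 449.6 to 516 CPM with a median of 485 CPM in primed libraries and at 314, 351 and 362 CPM in E-NHSM, 259, 247 and 244 CPM in NHSM-v, and 224, 232 and 204 CPM in 4i/L/b libraries. It lay at 139.8, 199.7 and 155 CPM in TL2i, 213, 189.7 and 193 CPM in t2iLGöY, 47.3, 45.8 and 43.1 CPM in LCDM (EPS), and 513, 578 and 659 CPM in TL-CDK8/19i libraries. LCDM (EPS) libraries were below every other library, 6 protocols were below all primed libraries, and TL-CDK8/19i libraries overlapped with them. By edgeR's quasi-likelihood test ITGA6 fell in 6 protocols, least in E-NHSM (log2 fold change -0.51 ± 0.075, adjusted p = 5.61e-05) and most in LCDM (EPS) cells (-3.41 ± 0.086, adjusted p = 1.08e-12), a 10.7-fold lower mean. In TL-CDK8/19i cells the difference (0.22 ± 0.085, adjusted p = 0.0501) lay on the edge of the threshold. It passed without TL-CDK8/19i replicate 1 (0.32, adjusted p = 0.0125) and also passed without primed library J1 (adjusted p = 0.0362), J2 (0.0475), or K1 (0.0383). The same difference passed under DESeq2 (0.00734), upper-quartile scaling (0.0383), without the filter on low counts (0.0493), a filter of at least 10 counts in every library (0.0169), a fit of all 8 groups (0.011), and with the K primed libraries alone (0.0494).

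ITGA7, a laminin receptor best known from muscle, lay from 101 to 152 CPM with a median of 131 CPM in primed libraries. It was at 114, 94.5 and 82.9 CPM in E-NHSM, 56.5, 75.6 and 69.5 CPM in NHSM-v, 55.2, 58.1 and 58.4 CPM in 4i/L/b, and 44.1, 47.6 and 45.8 CPM in TL2i libraries. In t2iLGöY libraries it was at 24.9, 20.7 and 13.4 CPM, in LCDM (EPS) libraries at 18.6, 18.7 and 13.4 CPM, and in TL-CDK8/19i libraries at 88.5, 74.9 and 89.5 CPM. E-NHSM libraries overlapped with the primed range and those of the 6 other protocols lay under it. ITGA7 fell in all 7 protocols by edgeR's test, least in E-NHSM (-0.42 ± 0.13, adjusted p = 0.0278) and most in LCDM (EPS) cells (-2.93 ± 0.16, adjusted p = 2.90e-09). The call in E-NHSM cells was lost without E-NHSM replicate 2 (adjusted p = 0.106), E-NHSM replicate 3 (0.185), primed J1 (0.0589), or primed J2 (0.0504), under upper-quartile normalization (0.0644), and against the K primed libraries alone (0.0577).

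ITGA3, the other main laminin-binding alpha subunit of epithelia, lay from 15.3 to 43.1 CPM with a median of 18.99 CPM in primed libraries, which fell into 2 sets, since J1 and J2 were at 43.1 and 38.4 CPM and the 4 others under 21 CPM. It was at 27.7, 21.2 and 26.05 CPM in E-NHSM, 11.1, 10.7 and 18.4 CPM in NHSM-v, 10.4, 16.8 and 10.2 CPM in 4i/L/b, and 12.9, 15.3 and 13.01 CPM in TL2i libraries. The level was 15.6, 17.1 and 15.8 CPM in t2iLGöY, 3.64, 2.03 and 3.3 CPM in LCDM (EPS), and 82.6, 97.7 and 97.6 CPM in TL-CDK8/19i libraries. TL-CDK8/19i libraries were above and LCDM (EPS) libraries below every other library, and those of t2iLGöY, 4i/L/b, E-NHSM, and NHSM-v cells overlapped with the primed range. ITGA3 rose in TL-CDK8/19i cells (1.82 ± 0.28, adjusted p = 0.000114) and fell in LCDM (EPS) cells (-3.08 ± 0.42, adjusted p = 2.46e-05). Smaller decreases in NHSM-v (-0.94 ± 0.36, adjusted p = 0.0361), 4i/L/b (-1.07 ± 0.36, adjusted p = 0.0226), and TL2i cells (-0.89 ± 0.34, adjusted p = 0.0412) passed edgeR's test but not when single libraries were left out. They were lost without primed J2 (adjusted p = 0.0947, 0.0558, and 0.0827 in that order). Leaving out primed J1 ended the call in NHSM-v (0.101) and TL2i cells (0.0699). The NHSM-v call was also lost without NHSM-v replicate 1 (0.143) or 2 (0.134), the 4i/L/b call without 4i/L/b replicate 1 (0.107) or 3 (0.0954), and the TL2i call without TL2i replicate 1, 2, or 3 (0.125, 0.0799, and 0.123) or under upper-quartile normalization (0.0512). Against the K primed libraries alone, the adjusted p of ITGA3 was 0.139 in NHSM-v and 0.0687 in TL2i cells. The difference in t2iLGöY cells (-0.62 ± 0.34, adjusted p = 0.135) passed in a fit of all 8 groups (0.0387) and against the J primed libraries alone (0.0335).

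Alpha subunits that recognise the arginine-glycine-aspartate motif of fibronectin and vitronectin, the RGD-binding group, went up in some protocols and down in others. ITGA5, the alpha subunit of the fibronectin receptor, lay from 166 to 207 CPM with a median of 187 CPM in primed libraries and at 118, 114 and 105 CPM in E-NHSM, 60.3, 51.4 and 46.2 CPM in t2iLGöY, and 38.4, 40.6 and 32.1 CPM in LCDM (EPS) libraries. It lay at 301, 284 and 294 CPM in NHSM-v, 397, 471 and 433 CPM in 4i/L/b, 222, 283 and 238 CPM in TL2i, and 798, 1028 and 855 CPM in TL-CDK8/19i libraries. No protocol overlapped with primed cells, and TL-CDK8/19i libraries were above and LCDM (EPS) libraries below all others. ITGA5 fell in E-NHSM (-0.75 ± 0.10), t2iLGöY (-1.81 ± 0.12), and LCDM (EPS) cells (-2.34 ± 0.12) and rose in TL2i (0.39 ± 0.1), NHSM-v (0.61 ± 0.086), 4i/L/b (1.16 ± 0.087), and TL-CDK8/19i cells (2.19 ± 0.092, a 4.74-fold higher mean), with adjusted p from 5.72e-10 to 0.00473 by edgeR's test.

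ITGAV, which with several beta subunits binds vitronectin, fibronectin, or latent TGFβ, lay from 126 to 181 CPM with a median of 147 CPM in primed libraries. Libraries of E-NHSM cells were at 45.5, 48.04 and 45.9 CPM, of t2iLGöY cells at 62.3, 80.3 and 59.8 CPM, and of LCDM (EPS) cells at 83.9, 74.1 and 94.6 CPM. Those of NHSM-v cells were at 427, 439 and 421 CPM, of 4i/L/b cells at 537, 645 and 556 CPM, of TL2i cells at 144, 229.7 and 167 CPM, and of TL-CDK8/19i cells at 479, 668 and 527 CPM. Only TL2i libraries overlapped with primed ones, and E-NHSM libraries were below every other library. ITGAV fell in E-NHSM (-1.71 ± 0.13, adjusted p = 1.97e-08), t2iLGöY (-1.14 ± 0.14, adjusted p = 7.25e-06), and LCDM (EPS) cells (-0.84 ± 0.13, adjusted p = 7.98e-05) and rose in NHSM-v (1.48 ± 0.11, adjusted p = 1.42e-08), TL-CDK8/19i (1.83 ± 0.12, adjusted p = 3.71e-08), and 4i/L/b cells (1.89 ± 0.11, adjusted p = 7.85e-09), by edgeR's test. The TL2i difference was 0.25 ± 0.15 and did not pass (adjusted p = 0.179). ITGA8, the nephronectin receptor subunit, was sparse in primed libraries (0.755 to 2.07 CPM) and rose in 5 protocols, by a log2 fold change of 2.01 ± 0.70 in t2iLGöY to 3.48 ± 0.41 in TL-CDK8/19i cells, whose libraries held 15.2 to 18.8 CPM, above all others. ITGA2B, the platelet subunit, stayed at 0 to 0.899 CPM in primed and under 2.5 CPM in all other libraries and changed in none of the 4 comparisons that tested it.

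The collagen-binding alpha subunits ITGA1, ITGA2, and ITGA11 each rose in some protocols. ITGA1 lay from 7.71 to 10.1 CPM with a median of 8.29 CPM in primed libraries, at 5.42, 8.67 and 7.32 CPM in E-NHSM, 4.51, 14.9 and 4.75 CPM in NHSM-v, 5.34, 7.92 and 5.52 CPM in TL2i, and 4.09, 7.4 and 9.18 CPM in t2iLGöY libraries. It was at 2.56, 4.29 and 2.27 CPM in LCDM (EPS), 19.1, 21.8 and 17.1 CPM in 4i/L/b, and 52.9, 71.5 and 43.9 CPM in TL-CDK8/19i libraries. TL-CDK8/19i libraries were above all others, LCDM (EPS) libraries were below the primed range, and NHSM-v replicate 2 stood apart from its group. ITGA1 rose in TL-CDK8/19i (2.68 ± 0.18, adjusted p = 4.58e-08) and 4i/L/b cells (1.15 ± 0.22, adjusted p = 0.000601) and fell in LCDM (EPS) cells (-1.47 ± 0.38, adjusted p = 0.0047), by edgeR's test. ITGA2, the receptor subunit for fibrillar collagen on epithelia and platelets, was at 0 to 3.43 CPM in primed libraries, with no count in 3 of the 6. It stood at 63.7 to 74.4 CPM in NHSM-v, 48.4 to 55.2 CPM in 4i/L/b, and 12.3 to 17.7 CPM in t2iLGöY libraries and rose in each of these (6.75 ± 0.70, adjusted p = 9.08e-07; 6.31 ± 0.76, adjusted p = 8.86e-06; and 4.47 ± 1.05, adjusted p = 0.00215). ITGA11, a collagen receptor subunit known from fibroblasts, was at 0 to 3.08 CPM in primed and at 57.3 to 90.8 CPM in TL-CDK8/19i, 36.3 to 55.9 CPM in 4i/L/b, 17.4 to 26.95 CPM in NHSM-v, and 15.5 to 19.02 CPM in TL2i libraries. ITGA11 rose in these 4 protocols, least in TL2i (3.35 ± 0.78, adjusted p = 0.00268) and most in TL-CDK8/19i cells (5.33 ± 0.57, adjusted p = 3.69e-06). TL-CDK8/19i, 4i/L/b, and NHSM-v libraries also had the highest summed fibroblast markers, the part of which in this rise was not tested. ITGA10, a cartilage collagen receptor subunit, was spread over 0 to 6.26 CPM among the primed libraries and passed in none of the 7 comparisons.

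ITGA4, which binds VCAM1 and fibronectin, lay from 8.69 to 17.3 CPM with a median of 9.82 CPM in primed libraries. Its values were 7.54, 7.39 and 9.42 CPM in E-NHSM, 16.7, 6.69 and 8.8 CPM in NHSM-v, 4.8, 4.62 and 5.87 CPM in 4i/L/b, and 9.51, 11.2 and 9.76 CPM in TL2i libraries. Those of t2iLGöY libraries were 18.1, 21.9 and 17.9 CPM, of LCDM (EPS) libraries 5.24, 5.47 and 4.93 CPM, and of TL-CDK8/19i libraries 14.7, 14.8 and 10.6 CPM. The t2iLGöY libraries were above every other library, whereas 4i/L/b and LCDM (EPS) libraries lay under the primed range. ITGA4 rose in t2iLGöY (0.85 ± 0.28, adjusted p = 0.0178) and fell in 4i/L/b (-1.14 ± 0.33, adjusted p = 0.0094) and LCDM (EPS) cells (-1.07 ± 0.33, adjusted p = 0.0128). The rise was lost without t2iLGöY replicate 2 (0.75, adjusted p = 0.0813) and against the J primed libraries alone (0.108), and the LCDM (EPS) call without LCDM (EPS) replicate 3 (-1.01, adjusted p = 0.0537).

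Alpha subunits of leukocytes were at or near absence. ITGAD, ITGAL, ITGAM, and ITGAX did not exceed 2.03 CPM in any library. ITGAD and ITGAM were too sparse for every comparison, and ITGAL and ITGAX passed in none of those that tested them against primed cells. ITGB7 did not exceed 3.44 CPM, a value of TL-CDK8/19i replicate 1, and ITGB2 had its highest value, 9.16 CPM, in primed J1. ITGB2, the common leukocyte beta subunit, fell in TL2i (-2.52 ± 0.94, adjusted p = 0.0381, with overlapping libraries) and LCDM (EPS) cells (-2.76 ± 0.94, adjusted p = 0.0226). PTPRC, which marks all leukocytes, was at 0 to 0.283 CPM throughout, and the sum of 6 leukocyte markers went from 0 to 2.02 CPM in t2iLGöY to 52.1 to 60.1 CPM in TL-CDK8/19i libraries, of which LCP1 made 45.99 to 54.8 CPM. Megakaryocyte markers summed to 0.685 to 8.43 CPM in primed libraries, the widest range of any group, with PPBP and GP9 at or under the floor in every group. ITGAE, which pairs with ITGB7 to bind E-cadherin, was the exception among these subunits, at 6.9 to 12.6 CPM in primed libraries, and rose in TL2i (0.92 ± 0.23, adjusted p = 0.00473), 4i/L/b (0.78 ± 0.24, adjusted p = 0.015), and LCDM (EPS) cells (0.63 ± 0.25, adjusted p = 0.0472).

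Among the beta subunits, ITGB1 changed in all 7 protocols but not in a single direction, ITGB5 fell in all 7, and ITGB8 rose in 6. ITGB1, the common partner of most alpha subunits, lay from 846 to 1178 CPM with a median of 948 CPM in primed libraries and at 330.4, 375 and 364 CPM in E-NHSM, 472, 413 and 429.95 CPM in LCDM (EPS), 682, 673 and 707 CPM in t2iLGöY, and 676, 806 and 666 CPM in TL2i libraries. It lay at 1622, 1949 and 1839.7 CPM in 4i/L/b, 2182, 2101 and 1954 CPM in NHSM-v, and 3657, 4937 and 4627 CPM in TL-CDK8/19i libraries. No protocol overlapped with primed cells, and E-NHSM libraries were below and TL-CDK8/19i libraries above all other libraries. ITGB1 fell in E-NHSM (-1.47 ± 0.097, adjusted p = 3.66e-09), LCDM (EPS) (-1.16 ± 0.10, adjusted p = 3.15e-07), t2iLGöY (-0.49 ± 0.096, adjusted p = 0.000528), and TL2i cells (-0.46 ± 0.11, adjusted p = 0.00292), by edgeR's test. It rose in 4i/L/b (0.83 ± 0.1, adjusted p = 8.66e-06), NHSM-v (1.06 ± 0.092, adjusted p = 1.24e-07), and TL-CDK8/19i cells (2.11 ± 0.10, adjusted p = 2.75e-09), the last a 4.48-fold higher mean. Between the primed libraries with the letters K and J in their column names, ITGB1 was also the only member of 24 tested that passed (log2 fold change 0.30 ± 0.067, adjusted p = 0.016, higher in K), where 3.73% of all genes passed, 2.03% higher and 1.7% lower. Libraries of the 2 letters did not overlap for 4 of these 24 members (23.4% of all genes), and no member differed between them by 1 or more on the log2 scale and passed (0.709% of all genes).

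ITGB5, which joins ITGAV in the vitronectin receptor, lay from 257 to 295 CPM with a median of 283 CPM in primed libraries. It stood at 235, 234 and 234 CPM in E-NHSM, 104, 85.3 and 91.7 CPM in NHSM-v, 113, 139 and 118 CPM in 4i/L/b, and 87.96, 107 and 96.8 CPM in TL2i libraries. It was at 18.6, 17.1 and 25.1 CPM in t2iLGöY, 21.6, 19.8 and 19.1 CPM in LCDM (EPS), and 134, 124 and 124 CPM in TL-CDK8/19i libraries. All 6 primed libraries were above every library of a protocol. The decrease by edgeR's test was smallest in E-NHSM cells (-0.26 ± 0.078, adjusted p = 0.0175) and largest in t2iLGöY (-3.76 ± 0.14, adjusted p = 1.36e-11) and LCDM (EPS) cells (-3.79 ± 0.1, adjusted p = 1.66e-12), which held 13.8 and 13.9 times less than primed cells. The call in E-NHSM cells was lost without E-NHSM replicate 1, 2, or 3 (adjusted p = 0.0714, 0.0734, and 0.0775) and under upper-quartile normalization (-0.20, adjusted p = 0.0792).

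ITGB8, which with ITGAV frees active TGFβ from its latent form, was nearly silent in primed libraries, from 0 to 2.35 CPM with a median of 0.57 CPM and with no count in J3 and K1, and in E-NHSM libraries (3.06, 1.5 and 0.915 CPM). It was at 54.2, 54.7 and 48.9 CPM in NHSM-v, 90.1, 87.8 and 73.5 CPM in 4i/L/b, and 89, 69.2 and 91.4 CPM in LCDM (EPS) libraries. Lower levels were found in TL2i (20.7, 25.5 and 22.7 CPM), t2iLGöY (18.9, 27.4 and 17.99 CPM), and TL-CDK8/19i libraries (8.26, 8.58 and 6.28 CPM). The libraries of these 6 protocols were all above the primed ones. ITGB8 rose in LCDM (EPS) (6.53 ± 0.55, adjusted p = 2.14e-07), 4i/L/b (6.49 ± 0.55, adjusted p = 2.86e-07), NHSM-v (5.83 ± 0.62, adjusted p = 1.03e-06), TL2i (4.65 ± 0.75, adjusted p = 0.000151), and t2iLGöY cells (4.58 ± 0.80, adjusted p = 0.000187), by edgeR's test. It also rose in TL-CDK8/19i cells (3.02 ± 0.98, adjusted p = 0.0202), where the call was lost without TL-CDK8/19i replicate 1 (adjusted p = 0.0667) or 2 (0.0766). These fold changes rest on few primed counts and have wide errors, and the group means differed 91.9-fold in LCDM (EPS) and 8.51-fold in TL-CDK8/19i cells.

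ITGB3, the beta subunit of the vitronectin receptor of endothelium and platelets, was called in TL-CDK8/19i cells alone among the 7 protocols (3.26 ± 0.42, adjusted p = 2.00e-05), with 16.05 to 32.4 CPM there and 0.863 to 3.68 CPM in primed libraries. Summed endothelial markers, mostly TEK there, were highest in the same libraries, 160.00 to 209 CPM against 95.4 to 129.5 CPM in primed and 15.9 to 17.1 CPM in t2iLGöY libraries, and their part in the rise of ITGB3 was not tested. TEK had means of 132 CPM in TL-CDK8/19i and 31.3 CPM in primed cells. KDR, the largest part of the primed sum, went the other way, from 68.2 CPM in primed to 28.8 CPM in TL-CDK8/19i cells. PECAM1, CDH5, and VWF had higher means than in primed cells, of at most 12.7 CPM. ITGB4, the hemidesmosome partner of ITGA6, was at 0.0887 to 3.13 CPM in primed libraries and rose in TL2i (3.68 ± 0.56, adjusted p = 9.21e-05), TL-CDK8/19i (3.08 ± 0.61, adjusted p = 0.000822), and 4i/L/b cells (2.09 ± 0.73, adjusted p = 0.0254). ITGB6, the epithelial partner of ITGAV, had no count in any primed library and lay at 1.37, 3.9 and 0.919 CPM in TL2i libraries, an at least 4.82-fold higher mean when the primed level is set to the 3-count floor of the shallowest primed library (adjusted p = 0.00206). Integrin genes by library are plotted for 9 of the subunits whose values are given in every library.

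**Figure D2:**
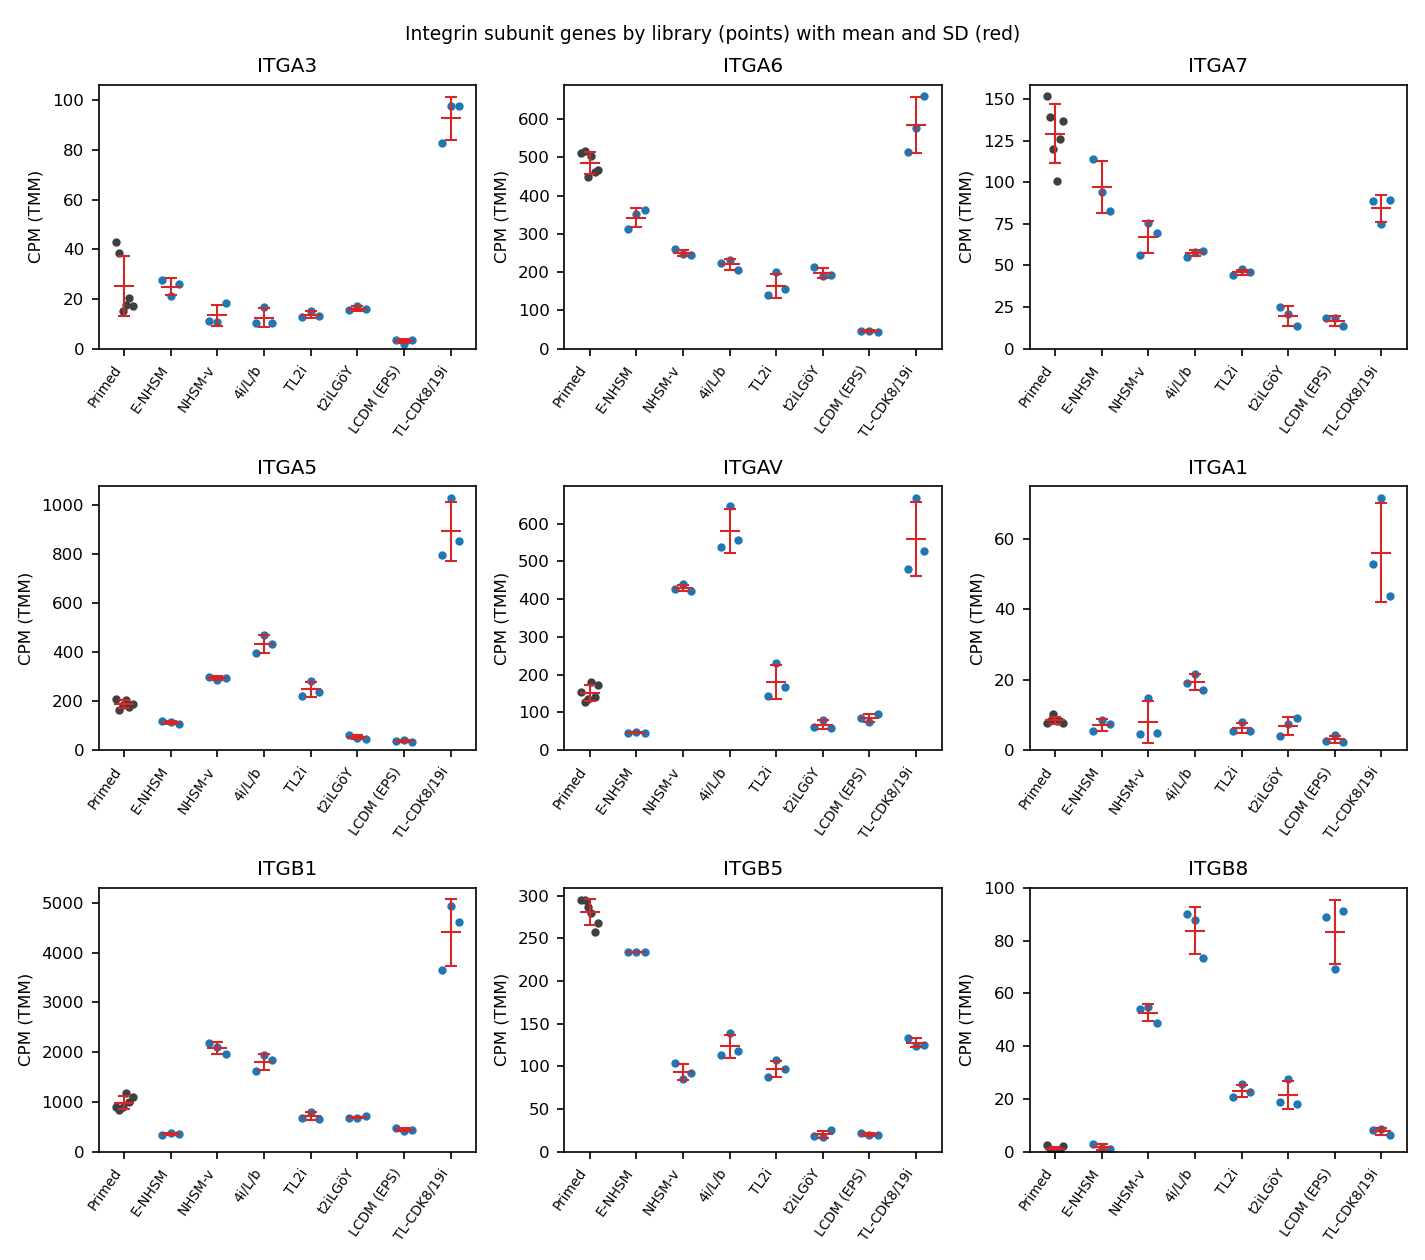
CPM (TMM-normalized, linear axes that differ between panels) of 9 integrin subunit genes in each library (points) of primed cells (n = 6, dark) and of the 7 protocols (n = 3 each, blue), with the mean and SD in red. ITGB5 is highest in the primed libraries, ITGA3, ITGA5, ITGA1, and ITGB1 are highest in TL-CDK8/19i libraries, and ITGB8 is near 0 in primed and E-NHSM libraries.

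Laminin alpha chains decide which receptors a laminin trimer binds, and the 4 described in full, LAMA5, LAMA1, LAMA4, and LAMA2, did not move alike. LAMA5, the alpha chain typical of the epiblast and of mature epithelia, lay from 373 to 442 CPM with a median of 395 CPM in primed libraries, at 300.2, 282 and 266 CPM in E-NHSM and 239, 206 and 251 CPM in NHSM-v libraries. In 4i/L/b libraries LAMA5 was at 457, 521 and 495 CPM, in TL2i at 453, 741 and 603 CPM, in TL-CDK8/19i at 598, 485 and 474 CPM, in t2iLGöY at 51.9, 47.8 and 47.9 CPM, and in LCDM (EPS) libraries at 35.9, 39.5 and 37.1 CPM. No protocol overlapped with primed cells, and LCDM (EPS) libraries were below all others. LAMA5 fell in LCDM (EPS) (-3.41 ± 0.092, adjusted p = 2.06e-12), t2iLGöY (-2.99 ± 0.095, adjusted p = 3.59e-12), NHSM-v (-0.80 ± 0.086, adjusted p = 1.24e-06), and E-NHSM cells (-0.50 ± 0.079, adjusted p = 0.000103), 10.6-fold and 8.1-fold in the first pair (edgeR). It rose in TL2i (0.59 ± 0.12, adjusted p = 0.00103), TL-CDK8/19i (0.33 ± 0.089, adjusted p = 0.00719), and 4i/L/b cells (0.26 ± 0.074, adjusted p = 0.00924), the last of which was lost without 4i/L/b replicate 2 (0.22, adjusted p = 0.0577).

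LAMA1, the alpha chain of the first embryonic laminins, lay from 117 to 165 CPM with a median of 137 CPM in primed libraries. Values were 70.9, 53.7 and 58.9 CPM in E-NHSM, 89.7, 86.3 and 79.9 CPM in LCDM (EPS), 160.1, 174 and 172 CPM in NHSM-v, and 164, 161 and 161 CPM in t2iLGöY libraries. They were 399, 444 and 423 CPM in 4i/L/b, 716, 1104 and 893 CPM in TL2i, and 218, 105 and 111 CPM in TL-CDK8/19i libraries. TL2i libraries were above and E-NHSM libraries below all others, NHSM-v, t2iLGöY, and TL-CDK8/19i libraries overlapped with the primed range, and the first TL-CDK8/19i library stood apart from the other two. LAMA1 rose in TL2i (2.71 ± 0.13, adjusted p = 8.19e-10, 6.54-fold) and 4i/L/b cells (1.57 ± 0.097, adjusted p = 1.43e-08) and fell in E-NHSM (-1.18 ± 0.13, adjusted p = 2.09e-06) and LCDM (EPS) cells (-0.69 ± 0.11, adjusted p = 0.000128), by edgeR's test. In TL-CDK8/19i cells LAMA1 did not pass (0.018 ± 0.19, adjusted p = 0.951), and without replicate 1 it passed in the opposite direction (-0.38, adjusted p = 0.0395). The difference in t2iLGöY cells (0.26 ± 0.11, adjusted p = 0.0564) passed without primed J1 (0.30, adjusted p = 0.0221), against the K primed libraries alone (0.0147), under DESeq2 (0.0297), upper-quartile normalization (0.0435), and the filter of at least 10 counts (0.0208). That in NHSM-v cells (0.26 ± 0.11, adjusted p = 0.0462) was lost without NHSM-v replicate 2 (adjusted p = 0.142) or 3 (0.11) or primed J3 (0.0592), under upper-quartile normalization (0.0565), in a fit of all 8 groups (0.0976), and against the J primed libraries alone (0.095). The endoderm genes GATA6 and SOX17 were also highest in TL2i libraries, at 14.1 to 22.8 and 15.5 to 28.2 CPM against 0 to 7.29 and 0 to 2.48 CPM in primed libraries, while the sum of 5 endoderm markers, mostly SPARC, was 529 to 816 CPM in primed, 304 to 335 CPM in E-NHSM, 1008 to 1392 CPM in TL2i, and 2869.8 to 2979.8 CPM in NHSM-v libraries. Their part in the level of LAMA1 was not tested.

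LAMA4, the alpha chain of vessels and mesenchyme, lay from 7.86 to 18.2 CPM with a median of 10.8 CPM in primed and at 1.55, 2.5 and 1.02 CPM in E-NHSM libraries. It was at 82.1, 83.7 and 92.5 CPM in NHSM-v, 67.5, 97.8 and 94.7 CPM in 4i/L/b, 25.04, 32.6 and 27.2 CPM in TL2i, and 60.4, 48.8 and 86.4 CPM in t2iLGöY libraries. LCDM (EPS) libraries held 57.9, 64.6 and 50.6 CPM and TL-CDK8/19i libraries 151, 201 and 177 CPM. No protocol overlapped with primed cells, and TL-CDK8/19i libraries were above and E-NHSM libraries below all other libraries. LAMA4 fell in E-NHSM cells (-2.74 ± 0.44, adjusted p = 0.000128) and rose in the 6 other protocols, least in TL2i (1.31 ± 0.25, adjusted p = 0.000683) and most in TL-CDK8/19i cells (3.90 ± 0.20, adjusted p = 4.48e-09, 15.6-fold).

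LAMA2, the alpha chain of muscle and nerve, was sparse, from 8.47 to 14.6 CPM with a median of 11.6 CPM in primed libraries. It was at 6.74, 5.56 and 7.32 CPM in E-NHSM, 9.47, 9.47 and 10.3 CPM in NHSM-v, and 16.2, 17.02 and 20.98 CPM in 4i/L/b libraries, the last of which were above every other library. Levels in TL2i (3.48, 3.9 and 2.12 CPM), t2iLGöY (5.8, 2.33 and 0.65 CPM), LCDM (EPS) (3.76, 2.83 and 3.19 CPM), and TL-CDK8/19i libraries (2.52, 1.56 and 2.8 CPM) all lay under the primed range. LAMA2 fell in TL-CDK8/19i (-2.40 ± 0.36, adjusted p = 8.72e-05), t2iLGöY (-1.98 ± 0.55, adjusted p = 0.00669), TL2i (-1.89 ± 0.34, adjusted p = 0.000423), and LCDM (EPS) cells (-1.85 ± 0.33, adjusted p = 0.000247), by edgeR's test. The decrease in E-NHSM cells (-0.85 ± 0.31, adjusted p = 0.0478) and the rise in 4i/L/b cells (0.58 ± 0.23, adjusted p = 0.0497) passed narrowly. The former was lost without any of the 3 E-NHSM libraries (adjusted p from 0.0982 to 0.173) or primed J1, J2, J3, K2, or K3 (0.0541 to 0.0824), against the K primed libraries alone (0.115), under upper-quartile normalization (0.0681), without the filter (0.0774), and in a fit of all 8 groups (0.0821). The latter was lost without any of the 3 4i/L/b libraries (0.0648 to 0.224) or primed J2, K1, K2, or K3 (0.054 to 0.0647), in a fit of all 8 groups (0.139), and against the J primed libraries alone (0.133). LAMA3, the alpha chain of skin, did not exceed 9.03 CPM in any library and rose in TL-CDK8/19i (4.18 ± 1.16, adjusted p = 0.00854) and TL2i cells (3.78 ± 1.20, adjusted p = 0.0178).

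LAMB1 and LAMC1, the beta and gamma chains shared by most embryonic laminins, went in the same direction as each other in every protocol. LAMB1 lay from 168 to 261 CPM with a median of 229 CPM in primed libraries, at 91.8, 78.8 and 88.3 CPM in E-NHSM, 83.8, 72.4 and 94.9 CPM in t2iLGöY, and 26.3, 37.3 and 34.8 CPM in LCDM (EPS) libraries. It was at 581, 547 and 537 CPM in NHSM-v, 669.8, 818 and 735 CPM in 4i/L/b, 559.9, 885 and 666 CPM in TL2i, and 399, 399 and 379 CPM in TL-CDK8/19i libraries. The 3 former protocols lay wholly under and the 4 latter wholly over the primed range, and LCDM (EPS) libraries were below all others. LAMB1 fell in LCDM (EPS) (-2.72 ± 0.17, adjusted p = 1.04e-08), t2iLGöY (-1.35 ± 0.15, adjusted p = 2.51e-06), and E-NHSM cells (-1.34 ± 0.14, adjusted p = 9.20e-07). It rose in TL-CDK8/19i (0.80 ± 0.13, adjusted p = 0.000119), NHSM-v (1.33 ± 0.12, adjusted p = 1.82e-07), TL2i (1.69 ± 0.15, adjusted p = 6.18e-07), and 4i/L/b cells (1.73 ± 0.13, adjusted p = 6.81e-08). LAMC1 lay from 330.3 to 389 CPM with a median of 375 CPM in primed libraries, at 148, 165 and 155 CPM in E-NHSM, 249.7, 217 and 264 CPM in t2iLGöY, and 131, 143 and 133 CPM in LCDM (EPS) libraries. It stood at 1118, 1021 and 999.7 CPM in NHSM-v, 777, 985 and 897 CPM in 4i/L/b, 819, 1297 and 950.2 CPM in TL2i, and 469, 482 and 399.6 CPM in TL-CDK8/19i libraries. The same split was seen, with no overlap between any protocol and primed cells. LAMC1 fell in LCDM (EPS) (-1.43 ± 0.079, adjusted p = 2.21e-09), E-NHSM (-1.24 ± 0.082, adjusted p = 3.66e-09), and t2iLGöY cells (-0.57 ± 0.086, adjusted p = 5.45e-05) and rose in 4i/L/b (1.23 ± 0.079, adjusted p = 2.03e-08), TL2i (1.47 ± 0.11, adjusted p = 1.38e-07), and NHSM-v cells (1.49 ± 0.068, adjusted p = 1.09e-10). Its small rise in TL-CDK8/19i cells (0.24 ± 0.083, adjusted p = 0.0266) was lost without TL-CDK8/19i replicate 1 (adjusted p = 0.0846) or 2 (0.142) and against the J primed libraries alone (0.0578).

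LAMB2, the beta chain of synapses, muscle, and kidney filters, lay from 164 to 204 CPM with a median of 177 CPM in primed libraries. Its values were 104, 89.7 and 93.8 CPM in E-NHSM, 278, 297 and 270.4 CPM in NHSM-v, 171, 177 and 174 CPM in 4i/L/b, and 195, 266 and 247 CPM in TL2i libraries. Values of 205, 170.2 and 164 CPM were found in t2iLGöY, 95.9, 106 and 97.2 CPM in LCDM (EPS), and 116, 90.2 and 67.7 CPM in TL-CDK8/19i libraries. NHSM-v libraries were above every other library, E-NHSM, LCDM (EPS), and TL-CDK8/19i libraries were under the primed range, and TL2i, 4i/L/b, and t2iLGöY libraries overlapped with it. LAMB2 rose in NHSM-v (0.64 ± 0.087, adjusted p = 1.38e-05) and TL2i cells (0.41 ± 0.11, adjusted p = 0.00598, lost without TL2i replicate 2, adjusted p = 0.0506) and fell in TL-CDK8/19i (-1.01 ± 0.15, adjusted p = 5.92e-05), E-NHSM (-0.89 ± 0.10, adjusted p = 3.52e-06), and LCDM (EPS) cells (-0.83 ± 0.096, adjusted p = 4.63e-06). LAMB3 and LAMB4 did not exceed 4.04 CPM in any library, and they passed in none of the comparisons with primed cells that tested them.

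LAMC3, a gamma chain found outside the classical basement membranes, lay from 11.8 to 25.8 CPM with a median of 12.4 CPM in primed libraries, highest in J2. It stood at 14.4, 13.6 and 18.4 CPM in E-NHSM, 2.37, 3.29 and 2.11 CPM in NHSM-v, 32.2, 35.5 and 32.9 CPM in 4i/L/b, and 23.9, 30.2 and 27.2 CPM in TL2i libraries. It was at 13.5, 15.01 and 18.2 CPM in t2iLGöY, 55.5, 66.4 and 60.8 CPM in LCDM (EPS), and 21.3, 18.6 and 24.6 CPM in TL-CDK8/19i libraries. LCDM (EPS) libraries were above and NHSM-v libraries below all others. Those of 4i/L/b cells were above the primed range, and E-NHSM, TL2i, t2iLGöY, and TL-CDK8/19i libraries overlapped with it. LAMC3 rose in LCDM (EPS) (1.98 ± 0.24, adjusted p = 7.12e-06) and 4i/L/b cells (1.08 ± 0.25, adjusted p = 0.00244) and fell in NHSM-v cells (-2.60 ± 0.39, adjusted p = 4.07e-05), where LAMC1 was 2.85-fold higher than in primed cells. The rise in TL2i cells (0.81 ± 0.26, adjusted p = 0.0192) was lost without TL2i replicate 2 (adjusted p = 0.0899) or 3 (0.061) and against the J primed libraries alone (0.131), and the TL-CDK8/19i difference (0.43 ± 0.27, adjusted p = 0.224) passed without primed J2 (0.63, adjusted p = 0.0407) and against the K primed libraries alone (0.0047).

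**Figure D3:**
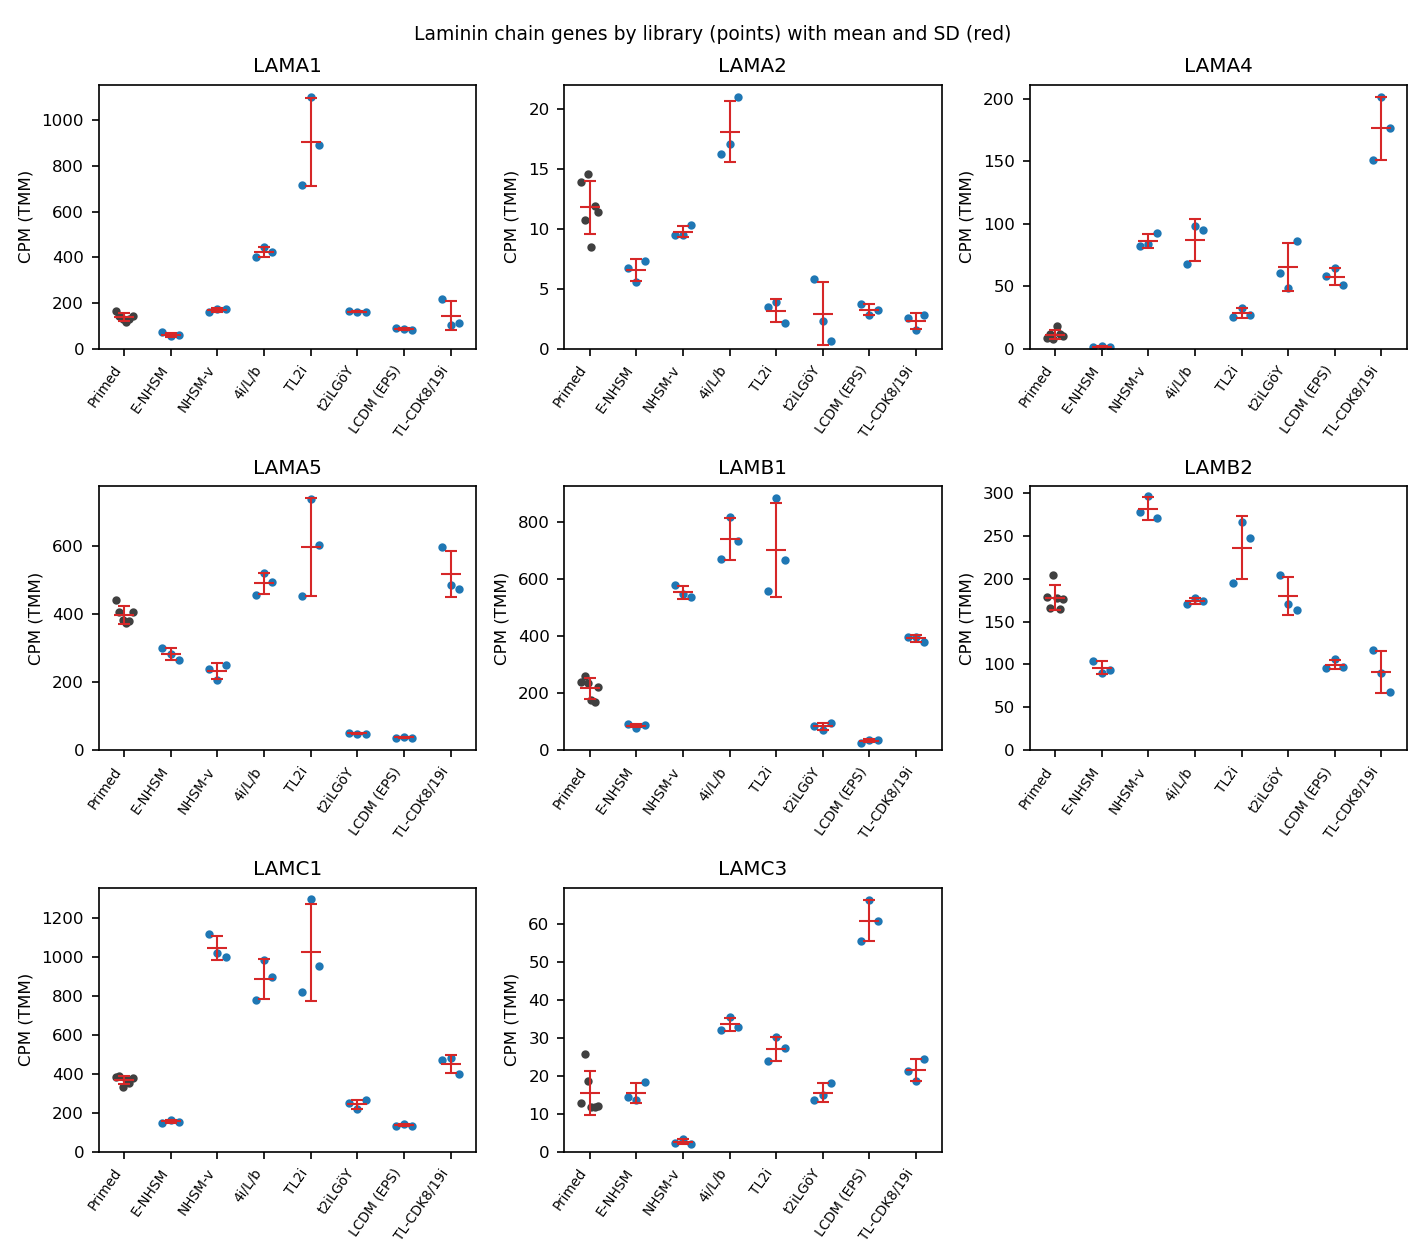
CPM (TMM-normalized, linear axes that differ between panels) of 8 laminin chain genes in each library (points) of primed cells (n = 6, dark) and of the 7 protocols (n = 3 each, blue), with the mean and SD in red. LAMB1 and LAMC1 lie above the primed libraries in the same 4 protocols and below them in the same 3, LAMA1 is highest in TL2i, LAMA4 in TL-CDK8/19i, LAMC3 in LCDM (EPS), and LAMA5 is lowest in t2iLGöY and LCDM (EPS) libraries.

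Sums over each kind of chain, which weigh abundant genes most and were not tested, placed the protocols in different orders. Summed alpha subunits were 1015 ± 55.1 CPM (SD, n = 6) in primed cells, and with n = 3 each 2390.1 ± 267 CPM in TL-CDK8/19i, 1461 ± 116 CPM in 4i/L/b, 1186 ± 18.03 CPM in NHSM-v, 725 ± 117 CPM in TL2i, 655 ± 3.63 CPM in E-NHSM, 426 ± 21.96 CPM in t2iLGöY, and 225 ± 6.51 CPM in LCDM (EPS) cells. Summed beta subunits, mostly ITGB1, went from 545 ± 39.4 CPM in LCDM (EPS) through 1273 ± 121 CPM in primed to 4583 ± 665 CPM in TL-CDK8/19i cells. Summed laminin chains had their highest level elsewhere, 3550.2 ± 795 CPM in TL2i cells, with 2863 ± 256 CPM in 4i/L/b, 2388 ± 77.04 CPM in NHSM-v, 1811 ± 173 CPM in TL-CDK8/19i, 1351 ± 84.8 CPM in primed, 804 ± 56.9 CPM in t2iLGöY, 715 ± 31.01 CPM in E-NHSM, and 515 ± 29.8 CPM in LCDM (EPS) cells. In CPM, summed integrins were thus highest in TL-CDK8/19i cells and summed laminins in TL2i cells, where replicate spread was widest.

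Within a library, the ratio of 2 members does not depend on the normalization, and a change of the ratio between groups can be read without knowing gene length. Ratios were chosen after the values were seen and are given with no test. LAMA1 to LAMA5 ran from 0.315 to 0.373 in primed libraries to 0.669 to 0.842 in NHSM-v, 0.853 to 0.874 in 4i/L/b, 1.48 to 1.58 in TL2i, 2.15 to 2.5 in LCDM (EPS), and 3.15 to 3.38 in t2iLGöY libraries, and was 0.19 to 0.236 in E-NHSM and 0.217 to 0.365 in TL-CDK8/19i libraries. The 5 protocols whose libraries held at most 7.69 CPM of POU5F1 were all above the primed range, in TL2i through more LAMA1 and in t2iLGöY and LCDM (EPS) cells through less LAMA5. LAMA4 to LAMA5 was 0.0187 to 0.0489 in primed libraries, overlapped with them at 0.044 to 0.0552 in TL2i libraries, and was lower at 0.00384 to 0.00887 in E-NHSM libraries. It was higher at 0.148 to 0.191 in 4i/L/b, 0.343 to 0.406 in NHSM-v, 0.252 to 0.415 in TL-CDK8/19i, 1.02 to 1.8 in t2iLGöY and 1.36 to 1.63 in LCDM (EPS) libraries. ITGA5 to ITGA6, the fibronectin against the laminin receptor subunit, was 0.321 to 0.414 in primed, 0.291 to 0.378 in E-NHSM, and 0.239 to 0.283 in t2iLGöY libraries, and higher at 0.744 to 0.887 in LCDM (EPS), 1.15 to 1.2 in NHSM-v, 1.42 to 1.59 in TL2i, 1.3 to 1.78 in TL-CDK8/19i, and 1.77 to 2.12 in 4i/L/b libraries. LAMB1 to LAMB2 was 0.998 to 1.57 in primed libraries, with its lowest values in LCDM (EPS) (0.275 to 0.357) and its highest in TL-CDK8/19i (3.43 to 5.6) and 4i/L/b libraries (3.93 to 4.62).

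**Figure D4:**
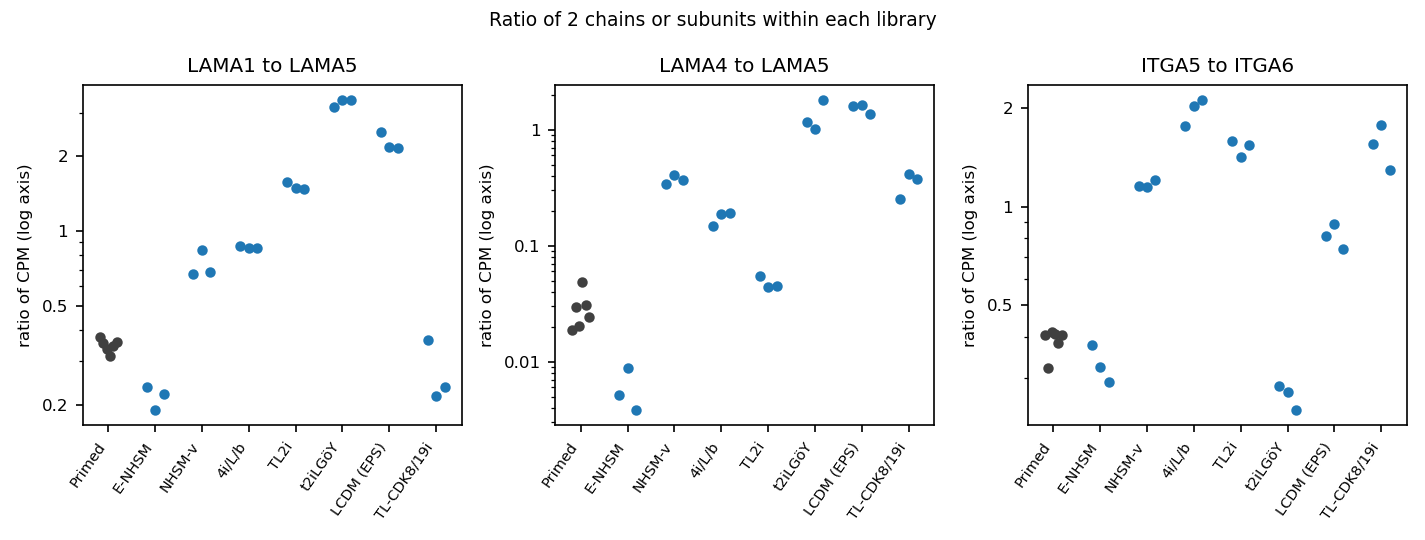
Ratio of the CPM of 2 genes within each library (points; log axes) for LAMA1 to LAMA5, LAMA4 to LAMA5, and ITGA5 to ITGA6 in primed cells (n = 6, dark) and the 7 protocols (n = 3 each, blue). LAMA1 to LAMA5 is highest in t2iLGöY libraries and LAMA4 to LAMA5 in t2iLGöY and LCDM (EPS) libraries, while ITGA5 to ITGA6 in t2iLGöY libraries lies under the primed points.

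TL-CDK8/19i and TL2i cells share tamoxifen and LIF and differ in their kinase inhibitors, so they were also compared directly, without primed cells. Most integrins were higher and most laminins lower in TL-CDK8/19i cells. Of 33 members tested, 14 were higher and 13 lower in TL-CDK8/19i cells, where 64.9% of all genes passed, 31.5% higher and 33.3% lower. By kind, 13 of 21 integrins were higher and 6 lower, whereas 1 of 12 laminins was higher and 7 were lower. At a change of at least 1 on the log2 scale, 21 members passed (28% of all genes), and the median absolute log2 fold change was 1.60 for the members and 0.58 for all genes. Libraries did not overlap for 25 members (70.4% of all genes). The integrins ITGA1 (3.13 ± 0.20, adjusted p = 1.75e-08), ITGA3 (2.72 ± 0.12, adjusted p = 3.77e-10), ITGB1 (2.59 ± 0.13, adjusted p = 1.25e-09), ITGA5 (1.82 ± 0.12, adjusted p = 1.90e-08), ITGA6 (1.79 ± 0.13, adjusted p = 6.31e-08), ITGAV (1.60 ± 0.16, adjusted p = 1.09e-06), ITGA7 (0.85 ± 0.10, adjusted p = 8.30e-06), and ITGB5 (0.36 ± 0.098, adjusted p = 0.00516) were higher in TL-CDK8/19i cells by edgeR's test, and ITGB8 was lower (-1.61 ± 0.18, adjusted p = 3.09e-06). The mean of ITGB1 was 6.15-fold and that of ITGA3 6.75-fold higher. ITGB3 differed most among the integrins (4.30 ± 0.39, adjusted p = 5.17e-07), ITGA11 was also higher (1.999 ± 0.16, adjusted p = 1.96e-07), and so were ITGA8, ITGB2, and ITGB7 (log2 fold changes 1.48, 2.23, and 2.24). ITGA10, ITGA2, ITGB4, and ITGAE were lower (-2.33, -1.01, -0.58, and -0.36), ITGA2 and ITGB4 with overlapping libraries, and so was ITGB6, of which no TL-CDK8/19i library held more than 2 counts.

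LAMA4 was the laminin chain that was higher in TL-CDK8/19i than in TL2i cells (2.61 ± 0.13, adjusted p = 1.09e-09, 6.24-fold). LAMA1 (-2.67 ± 0.24, adjusted p = 5.32e-07), LAMB2 (-1.40 ± 0.17, adjusted p = 7.18e-06), LAMC1 (-1.21 ± 0.15, adjusted p = 6.96e-06), LAMB1 (-0.87 ± 0.14, adjusted p = 7.19e-05), and LAMB3 (-2.88 ± 0.68, adjusted p = 0.00194) were lower by edgeR's test. LAMC3, whose libraries overlapped, was lower by less (-0.36 ± 0.15, adjusted p = 0.0434), and the call was lost without TL2i replicate 2 (adjusted p = 0.205) or 3 (0.116) or TL-CDK8/19i replicate 1 (0.0611) or 2 (0.171), under DESeq2 (0.0878), and without the filter (0.0565). The difference of LAMA5 (-0.24 ± 0.15, adjusted p = 0.189) passed without TL2i replicate 1 (-0.39, adjusted p = 0.0215) or TL-CDK8/19i replicate 1 (-0.36, adjusted p = 0.0358). The differences of LAMA2 (-0.50 ± 0.38, adjusted p = 0.263) and ITGA4 (0.36 ± 0.19, adjusted p = 0.113) did not pass, the latter until TL-CDK8/19i replicate 3 was left out (0.51, adjusted p = 0.0353).

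**Figure D5:**
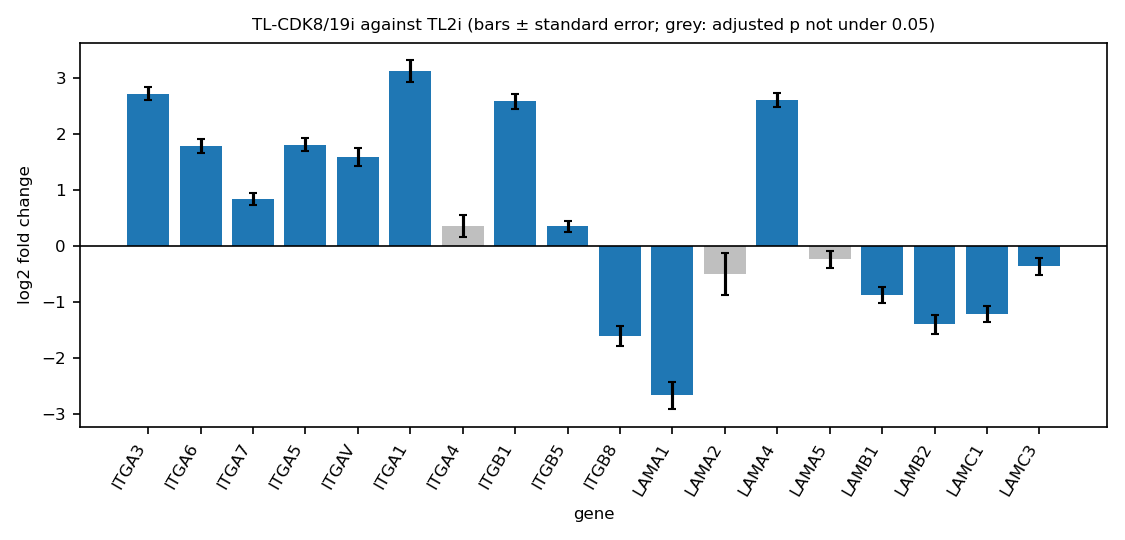
Log2 fold change between TL-CDK8/19i (n = 3) and TL2i cells (n = 3) for 18 integrin and laminin genes (bars, with the standard error as error bars; grey bars have an adjusted p not under 0.05). Bars of the integrins shown point up except for ITGB8, and bars of the laminins shown point down except for LAMA4. Integrins called but not shown are ITGA10, ITGA2, ITGB4, ITGAE, and ITGB6 (lower) and ITGB3, ITGA11, ITGA8, ITGB2, and ITGB7 (higher).

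Among the 7 protocols alone, an F test of any difference passed for 34 of 35 members, where 90.9% of all genes passed. The member that did not pass was ITGA2B.

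The proteins that surround these genes were described from a list of 39 partners, of which 37 were found: 13 matrix proteins that bind integrins or laminins, 6 other proteins linked to laminin binding (DAG1, BCAM, SDC1, SDC4, RPSA, and CD151), and 18 intracellular proteins. The numbers of partners higher and lower than in primed cells were 2 and 23 of 34 tested in E-NHSM, 19 and 6 of 35 in NHSM-v, 22 and 6 of 36 in 4i/L/b, 15 and 7 of 36 in TL2i, 7 and 18 of 36 in t2iLGöY, 3 and 24 of 35 in LCDM (EPS), and 23 and 5 of 37 in TL-CDK8/19i cells. Of all genes tested, 26.2%, 58.6%, 55.6%, 50.7%, 54.3%, 57.1%, and 46.1% were called in the same order. Between TL-CDK8/19i and TL2i cells the numbers of partners were 19 and 10 of 37, where 64.9% of all genes were called. TL2i cells, with 22 of 36 partners called, stood nearest to the share of all genes. Of the partners tested in all 7 protocols, SPP1 had the largest mean absolute log2 fold change, followed by FERMT1 and FBN1. SPP1 encodes osteopontin, a ligand of ITGAV integrins. It was at 1627 ± 581 CPM (mean ± SD, n = 6) in primed, 3234 ± 515 CPM in TL-CDK8/19i, and 69.6 ± 4.95 CPM in E-NHSM cells, and at 25.03 ± 2.54 CPM in 4i/L/b to 7.55 ± 1.66 CPM in t2iLGöY cells among the 5 others. It fell in 6 protocols, least in E-NHSM (-4.55 ± 0.23, adjusted p = 1.34e-10) and most in t2iLGöY cells (-7.72 ± 0.32, adjusted p = 4.98e-11), and rose in TL-CDK8/19i cells (0.94 ± 0.20, adjusted p = 0.00128). FERMT1, the epithelial kindlin that activates ITGB1 integrins from inside the cell, was at 93.2 ± 6.94 CPM in primed and 81.1 ± 3.9 CPM in E-NHSM cells and fell in the 6 protocols other than E-NHSM, to 34.9 ± 4.52 CPM in TL-CDK8/19i cells (-1.47 ± 0.13, adjusted p = 4.32e-07). Its lowest libraries, at 0 to 0.626 CPM in LCDM (EPS) and 0 to 0.682 CPM in t2iLGöY cells, lay around the floor. FERMT2, the kindlin of mesenchymal cells, did not follow, with a rise in 4i/L/b (1.28 ± 0.09, adjusted p = 5.30e-08) and TL-CDK8/19i cells (0.71 ± 0.10, adjusted p = 6.98e-05) and a decrease in t2iLGöY (-1.005 ± 0.11, adjusted p = 2.45e-06) and LCDM (EPS) cells (-0.86 ± 0.10, adjusted p = 7.90e-06). FBN1, the microfibril protein fibrillin, was at 84.4 ± 17.9 CPM in primed cells, rose in 5 protocols, most in NHSM-v (3.54 ± 0.13, adjusted p = 1.00e-11) and least in TL2i cells (1.06 ± 0.16, adjusted p = 0.000107), and fell in E-NHSM (-2.47 ± 0.18, adjusted p = 1.57e-08) and LCDM (EPS) cells (-0.82 ± 0.17, adjusted p = 0.00107). COL4A2, a chain of the collagen IV network to which laminins are tied, was at 316 ± 46.7 CPM in primed cells and rose in the 6 protocols other than E-NHSM, most in NHSM-v (3.23 ± 0.098, adjusted p = 1.34e-12) and least in t2iLGöY cells (1.29 ± 0.11, adjusted p = 1.85e-07). FN1, the fibronectin bound by ITGA5, rose in 4i/L/b (2.78 ± 0.17), NHSM-v (2.74 ± 0.16), TL2i (2.45 ± 0.21), and TL-CDK8/19i cells (1.84 ± 0.18) and fell in E-NHSM (-1.86 ± 0.17), t2iLGöY (-0.59 ± 0.17), and LCDM (EPS) cells (-1.27 ± 0.21), the direction of ITGA5 in each of the 7. NID1, which links laminin LAMC1 to collagen IV, was highest in TL-CDK8/19i (542 ± 71.8 CPM) and lowest in LCDM (EPS) cells (16.4 ± 4.22 CPM).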

How the data were processed

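Polyadenylated RNA was made into strand-marked libraries with the NextFlex Rapid Directional mRNA kit and read as single 75-base reads on a NextSeq500. The files held gene counts, whole numbers that the authors deposited as raw counts per gene, and the submitters' processing notes name bcl2fastq, cutadapt, HISAT2, and HTSeq. Versions, genome build, annotation, and strand setting are not given in the sources used here, so overlapping genes may share reads.

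Counts were analysed in R 4.3.3 with edgeR 4.0.16 (TMM normalization, filterByExpr, quasi-likelihood F test, Benjamini-Hochberg adjustment over all genes tested, threshold 0.05), with only the groups compared in each fit. A second call rule asked for an absolute log2 fold change of at least 1. Alternatives were DESeq2 1.42.0, upper-quartile normalization, other filters, all 8 groups in a single fit, primed columns of either letter alone, and each library left out. Labels give primed replicates in 2 sets with numbers that disagree, and the count columns carry the letters J and K, so these names were used. Same-numbered libraries of different protocols did not deviate together (63 pairs, r from -0.127 to 0.064), and numbers were not used as pairs. Standard errors of edgeR's log2 fold changes were derived from the test, as the absolute log2 fold change over the square root of the F statistic. They include the spread between libraries, and floors cover counting error only. The scripts were tested on simulated counts.

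Members and lists (partners, cell type markers) were chosen with earlier results of these data known. Values in every library are given for members at a mean of 10 CPM or more in a group that were called in the same direction in each of LCDM (EPS), t2iLGöY, TL2i, NHSM-v, and 4i/L/b cells (5 genes), or upward in some of the 7 protocols and downward in others (14 genes), or that were ITGA6, ITGB1, LAMA5, LAMB1, or LAMC1. These were 18 genes in all, and the other members are summarised. A member that is included in the counts is not reported here by name. Of the partners tested in all 7 protocols, the 3 with the largest mean absolute log2 fold change are named, and others where a sentence on a member needs them. COL4A2 was named after its values were seen. Protein and RNA sequences and genome positions were not used here.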

Additional observations from a re-analysis of the deposited data

Results flagged for a closer look

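In primed library J3, the shallowest of all libraries with 7111886 counts, 3 members stood apart from the other 5 primed libraries by more than the spread among those would allow under Dixon's criterion, which chance alone meets in about 1 of 20 groups (18 members were examined). ITGA1 was at 10.1 CPM there and at 7.71 to 8.42 CPM in the others. ITGA4 was at 17.3 CPM against 8.69 to 11.2 CPM. LAMB2 was at 204 CPM against 164 to 179 CPM. All 3 were high in J3.

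Of the 18 members, 3 were called in opposite directions when TL2i and when TL-CDK8/19i cells were compared with primed cells. The direct comparison of the 2 protocols by edgeR's quasi-likelihood test uses the same libraries as the calls that picked these genes. That it passed for each is therefore no separate support, and it gives the size of the difference. The TL2i calls of ITGA3 and LAMB2 against primed cells were lost when single TL2i libraries were left out, as given above. ITGA3 differed by a log2 fold change of 2.72 ± 0.12 (adjusted p = 3.77e-10) and was higher in all 3 TL-CDK8/19i libraries than in any TL2i library. ITGB1 differed by 2.59 ± 0.13 (adjusted p = 1.25e-09), again with no overlap. LAMB2 differed by -1.40 ± 0.17 (adjusted p = 7.18e-06) and was lower in all 3 TL-CDK8/19i libraries.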

How the results depend on the processing

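Of 2206 alternative values computed for 144 combinations of a member and a comparison, 2111 kept their side of the threshold, 72 lost the call, 22 gained it, and 1 reversed. Direction was compared only where the main or the alternative value was called. Values called in neither fit count among the 2111 whatever their direction. The reversal was LAMA1 in TL-CDK8/19i against primed cells, -0.38 without TL-CDK8/19i replicate 1 (from -0.38 to 0.20 over all left-out libraries of this comparison, 0.018 with all libraries). Counts of members called with each library left out ranged from 10 to 13 in E-NHSM, 17 to 19 in NHSM-v, 19 to 23 in 4i/L/b, 17 to 23 in TL2i, 15 to 17 in t2iLGöY, 18 to 22 in LCDM (EPS), and 18 to 22 in TL-CDK8/19i cells, and from 24 to 28 between TL-CDK8/19i and TL2i cells. Under a filter of at least 10 counts in every library, members past a log2 fold change of 1 numbered 8 in TL2i (15 as reported), 8 in t2iLGöY (13), and 9 in TL-CDK8/19i cells (16), and 20 members rather than 34 differed among the 7 protocols, since this filter tests fewer genes. With all 8 groups in a single fit, 20 rather than 13 members passed that rule in t2iLGöY cells, and 5255 rather than 3486 of all genes were called in E-NHSM cells (the cause was not tested). Same-numbered libraries of the protocols share only a number. With the replicate block, 24 rather than 27 members were called between TL-CDK8/19i and TL2i cells, 21 in either fit past a log2 fold change of 1, and 34 in either fit among the 7 protocols, with 8420 (8906 without it) and 13246 (13364) of all genes. No paired analysis was possible for the comparisons with primed cells because the primed columns carry no replicate number of the labels. At the depth of these libraries, a member under about 0.429 CPM in the shallowest library could not be told from absence, and the calls of ITGB8, ITGA2, ITGA11, and LAMA3 rest on few primed counts.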

Other observations

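The partners of these receptors were also read by kind. Of the 13 matrix proteins, 12 rose and 1 fell in 4i/L/b cells, where 26.6% of all genes tested rose and 29% fell. In TL2i cells 11 rose and 2 fell (25.6% and 25.2% of all genes), in TL-CDK8/19i cells 10 rose and 2 fell (22.3% and 23.8%), and in NHSM-v cells 8 rose and 2 fell of 12 tested (28% and 30.6%). In t2iLGöY cells 4 rose and 6 fell (27.1% and 27.2%), in LCDM (EPS) cells 1 rose and 8 fell of 12 tested (28.2% and 28.9%), and in E-NHSM cells 0 rose and 10 fell of 11 tested (11.1% and 15.1%). Of the 6 other proteins linked to laminin binding (DAG1, BCAM, SDC1, SDC4, RPSA, and CD151), the numbers that rose and fell were 0 and 6 in LCDM (EPS), 0 and 3 in t2iLGöY, 2 and 3 in 4i/L/b, 1 and 1 in TL2i, 3 and 2 in NHSM-v, 2 and 4 in E-NHSM, and 5 and 1 in TL-CDK8/19i cells, beside the same shares of all genes. DAG1, the dystroglycan that binds laminin alpha chains, was at 312 ± 6.37 CPM (mean ± SD, n = 6) in primed and 697 ± 36.8 CPM (n = 3) in TL-CDK8/19i cells (1.11 ± 0.065, adjusted p = 1.23e-08, edgeR). The ligands that are best known for ITGA8 and ITGAV were chosen here after their values were seen. NPNT, nephronectin, was near the floor in primed cells (0.213 ± 0.263 CPM) and at 93.6 ± 38.1 CPM in TL2i, 26.5 ± 5.5 CPM in TL-CDK8/19i, and 12.6 ± 0.854 CPM in 4i/L/b cells (adjusted p = 2.73e-09, 7.68e-07, and 4.19e-05). Its receptor subunit ITGA8 was highest in TL-CDK8/19i libraries and NPNT in TL2i libraries. VTN, vitronectin, was at 0.397 ± 0.687 CPM in primed and highest in TL2i cells, at 32.5 ± 12.2 CPM (adjusted p = 1.73e-05, edgeR). Its means were also above that of primed cells in t2iLGöY (12.6 CPM), 4i/L/b (8.86 CPM), TL-CDK8/19i (5.35 CPM), and LCDM (EPS) cells (2.72 CPM). Those of E-NHSM and NHSM-v cells were 0.714 and 0.377 CPM. The 18 intracellular partners did not follow the matrix proteins in TL2i cells, where 3 rose and 4 fell of 17 tested. With 17 tested each, 8 rose and 2 fell under NHSM-v, and likewise under 4i/L/b. The 10 calls in each stood beside 58.6% and 55.6% of all genes called, and the 7 in TL2i beside 50.7%. Decreases prevailed under t2iLGöY (3 up, 9 down), LCDM (EPS) (2 and 10), and E-NHSM (0 and 9), again of 17. TL-CDK8/19i had 8 up and 2 down of 18. PTK2, the focal adhesion kinase that acts below all of these receptors, had means between 164 ± 8.4 CPM in E-NHSM and 206 ± 9.51 CPM in NHSM-v cells and was called only in E-NHSM cells (-0.25 ± 0.091, adjusted p = 0.0485) among the comparisons with primed cells.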
